A study of Mus musculus with 6 samples.

Results

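The IL-6 cytokine family was followed through 10 genes in damaged hepatocytes (dHeps) kept in culture with small molecules. The genes were chosen by symbol from the 52323 genes of the count table: the ligands Il6, Osm, Lif and Il11, the receptor chains Il6ra, Osmr, Lifr and Il6st, the signal transducer Stat3 and the feedback inhibitor Socs3. All 10 were found, and all 10 passed the filter on low counts that left 19135 genes for testing.

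The cells came from the livers of Rosa-LSL-tdTomato mice that were given an adeno-associated virus with Cre under the liver-specific TBG promoter at 8 to 10 weeks of age (AAV-TBG-Cre:Rosa-LSL-tdTomato), so that hepatocytes carried a red tracer, and that were then injured with carbon tetrachloride (CCl4) for 12 weeks. They were cultured for 16 days in serum-free Hepatocyte Maintenance Medium with the solvent DMSO, with 3C or with 5C. The 3C cocktail held 50 µM CID755673, a protein kinase D inhibitor, 2 µM GSK429286A, a ROCK inhibitor, and 5 µM ETC-1002. To these 3 compounds, 5C added 5 µM salidroside and 2 µM forskolin, which activates adenylate cyclase and raises cyclic AMP. All groups shared the virus, the tracer and the injury, and no uninjured cells are in these comparisons. RNA was sequenced from 2 libraries per group. The study's methods call its replicates separate biological replicates, but the labels do not tie these libraries to animals or cultures, so the p-values measure only the spread between the libraries, part of which may be technical.

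The ligands of this family signal through complexes of ligand-specific receptor chains with gp130, the shared signalling chain encoded by Il6st, which activates JAK kinases and the transcription factor STAT3. STAT3 switches on the gene of its own inhibitor, SOCS3, and in hepatocytes it drives the acute phase proteins that the liver secretes during inflammation. In the liver, IL-6 and oncostatin M are known mainly as products of macrophages and other non-parenchymal cells that act on hepatocytes.

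Library totals were 65916573 to 69245895 counts. Hepatocyte markers were present in every library, with a summed level of 2042 and 2196 CPM (counts scaled to the library total) in DMSO, 9818 and 10333 in 3C, and 9349 and 13762 in 5C over 11 genes, of which 10 rose and 1 fell against DMSO with each cocktail. Most of the hepatocyte sum was Alb (1357 and 1182 CPM in DMSO, 7402 and 7769 in 3C, and 6766 and 10400 in 5C). Markers of other liver cells were present too. Macrophage markers (14 genes) summed to 13396 and 14364 CPM in DMSO, 4630 and 4644 in 3C, and 3051 and 3083 in 5C, and 13 of the 14 fell with each cocktail. Mesothelial markers (6 genes) summed to 913 to 1311 CPM in DMSO and 3C and to 2060 and 2109 in 5C. Stellate cell and fibroblast markers (11 genes) summed to 7757 and 9073 CPM in DMSO, 7076 and 7179 in 3C, and 11556 and 12573 in 5C. Most of this sum came from Col1a1, Col1a2 and Col3a1. Of the 11 genes, 6 rose and 1 fell with 5C, and 6 rose and 3 fell with 3C. Endothelial markers (8 genes) summed to 353 and 376 CPM in DMSO and to 95.3 to 223 with the cocktails, a sum carried by Lyve1 in DMSO (309 and 319 CPM). Of the 7 tested, 4 rose and 2 fell with 5C, and 2 rose and 2 fell with 3C. Cholangiocyte markers (6 genes) summed to 2310 to 3671 CPM over all libraries, mostly Spp1, and 4 rose and 2 fell with 5C while 4 rose and none fell with 3C. Neutrophil markers (7 genes, 4 of them at the floor of 12 counts or below in every library) summed to 1.49 to 9.19 CPM. Markers of T, B, NK and mast cells reached at most 0.689 CPM in sum. At an adjusted p under 0.05 against DMSO, 15.6% of all tested genes rose and 13.1% fell with 5C. With 3C, 12.7% of them rose and 11.8% fell. In these bulk samples, fewer cells of a type and less RNA per cell cannot be told apart.

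Per transcript length, in FPKM, which scales fragments for length and library total, the shared chain and STAT3 were far above the cytokines. Il6st had the highest median over the 6 libraries (56.6 FPKM, range 46.7 to 68.3), and the range of Stat3 overlapped with it (median 45.4 FPKM, 41.4 to 57.7). Socs3 (19.7 FPKM, 15.9 to 28.5) and Osmr (15.4 FPKM, 13.6 to 23.5) followed, with ranges that overlapped each other and neither Stat3 above nor Il6ra below. Il6ra (6.25 FPKM, 5.79 to 10.5) overlapped with Lifr (5.13 FPKM, 4.04 to 6.94), and Lifr with Lif (4.20 FPKM, 2.83 to 5.47), the most abundant of the 4 cytokines. Osm (0.831 FPKM, 0.410 to 1.32) lay below Lif in every library. Il11 (0.243 FPKM, 0.198 to 0.523) and Il6 (0.173 FPKM, 0.0830 to 0.646) were the lowest, and their ranges overlapped.

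**Figure D1:**
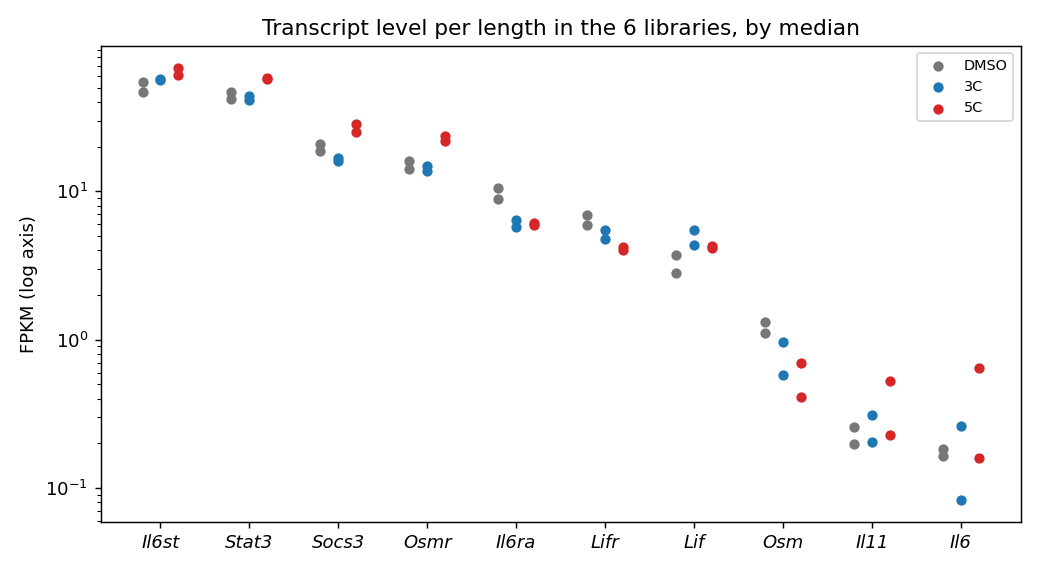
FPKM, on a log axis, of the 10 genes in the 6 libraries, ordered by median, with DMSO in grey, 3C in blue and 5C in red. Il6st and Stat3 stand at the top at 41.4 FPKM or more, and Il6 and Il11 stay at or under 0.646 FPKM in every library.

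With 5C, 7 of the 10 genes changed against DMSO: Lif, Osmr, Il6st, Stat3 and Socs3 rose, and Il6ra and Lifr fell. Of all genes tested, 15.6% rose and 13.1% fell in this comparison at an adjusted p under 0.05. None of the 7 changed by more than 2-fold, a limit that 11.7% of all genes passed. With 3C, Lif rose and Il6ra, Lifr and Socs3 fell, which is 4 of 10, beside 12.7% of all genes higher, 11.8% lower and 9.45% past 2-fold. Both contrasts against DMSO use the same 2 control libraries and are not independent. Between the cocktails, Osmr, Stat3 and Socs3 were higher with 5C than with 3C and no member was lower, where 7.33% of all genes were higher, 5.33% lower and 3.01% past 2-fold. The median log2 fold change of the 10 genes was 0.50 for 5C against DMSO, -0.20 for 3C against DMSO and 0.35 for 5C against 3C, beside medians of 0.00, 0.01 and -0.01 over all genes tested.

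**Figure D2:**
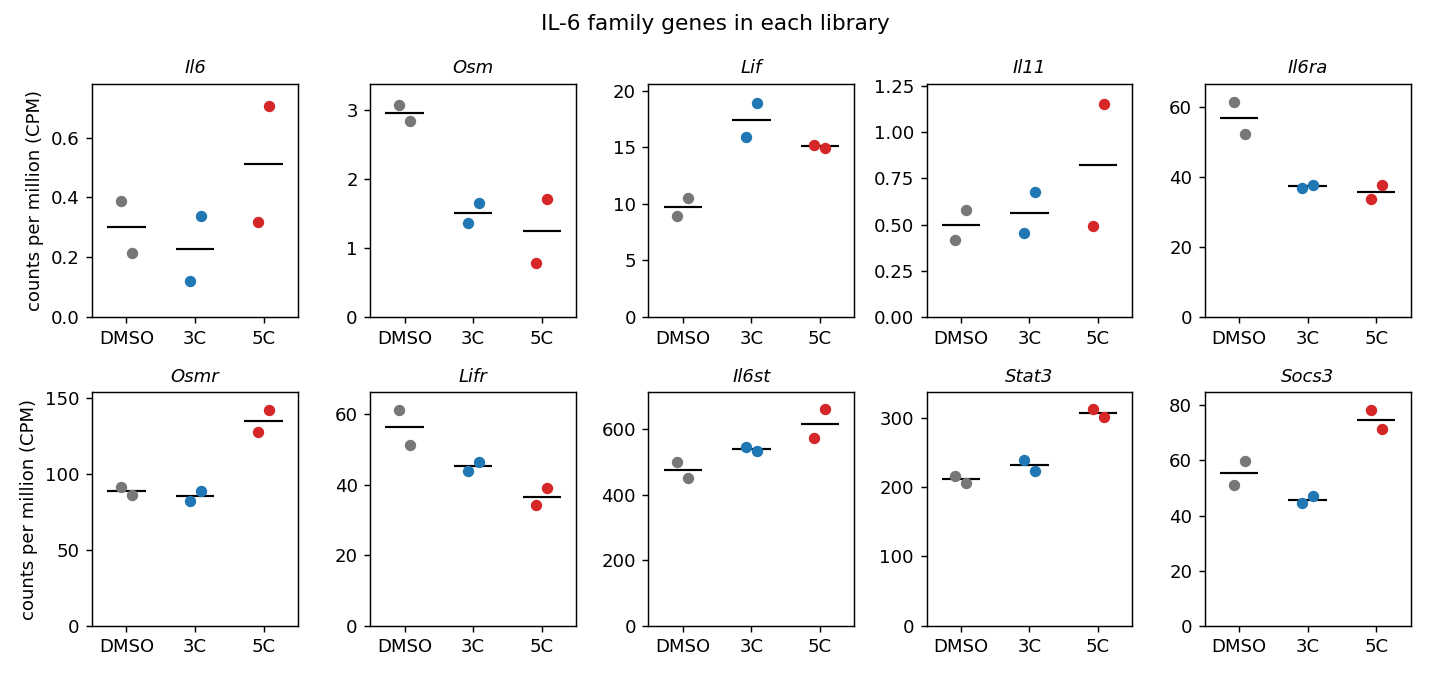
CPM of each gene in each library, with a point per library, a black bar at the group mean and each vertical axis starting at 0. For Osmr, Stat3 and Socs3 both 5C libraries lie above the other 4, for Il6ra both cocktails lie below DMSO, and for Lif both lie above it.

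**Figure D3:**
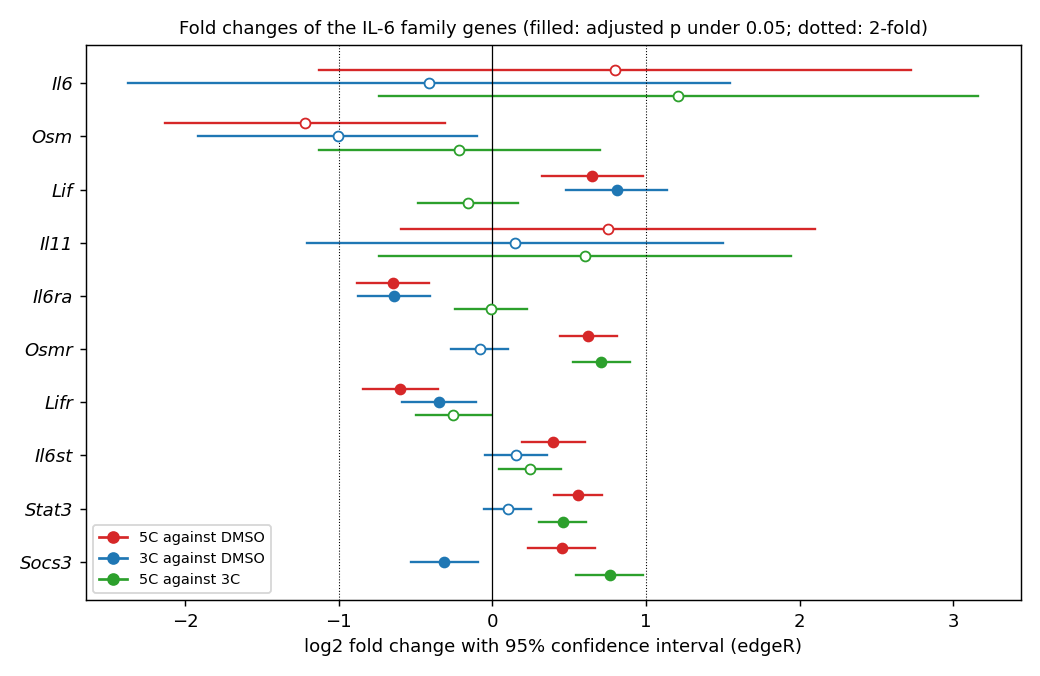
Log2 fold change and its 95% confidence interval from edgeR for each gene in 5C against DMSO (red), 3C against DMSO (blue) and 5C against 3C (green). Filled points passed an adjusted p of 0.05 and open points did not. The intervals of Il6 and Il11 are the widest, and all filled points lie inside the dotted 2-fold lines.

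Among the ligands, Lif rose with both cocktails. Lif (chr11:4207557-4222514, GRCm39, plus strand) encodes leukemia inhibitory factor, which signals through LIFR and gp130. It stood at 8.93 and 10.5 CPM in the DMSO libraries, 15.9 and 19.0 in 3C, and 15.2 and 15.0 in 5C. All 4 cocktail libraries were above both DMSO libraries, and the 5C values lay below those of 3C. The log2 fold change was 0.81 ± 0.15 (SE) with 3C (adjusted p = 0.00331, edgeR) and 0.65 ± 0.15 with 5C (adjusted p = 0.00902), and the difference between the cocktails was -0.16, with a 95% interval from -0.49 to 0.17 (adjusted p = 0.584). On the log2(FPKM + 1) scale neither rise passed, at 0.29 for 5C (adjusted p = 0.213, limma) and 0.47 for 3C (adjusted p = 0.0672). Without DMSO replicate 1 the rise with 5C was 0.53 (adjusted p = 0.0511).

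Osm lies just upstream of Lif on the same strand (chr11:4186420-4191026) and encodes oncostatin M, a cytokine made largely by macrophages and other leukocytes. Its level was 3.08 and 2.85 CPM in DMSO, 1.36 and 1.66 in 3C, and 0.782 and 1.72 in 5C. Both DMSO libraries were above all 4 cocktail libraries, and 3C and 5C overlapped. The log2 fold change was -1.22 ± 0.40 with 5C (95% interval -2.13 to -0.31, adjusted p = 0.0503) and -1.01 ± 0.40 with 3C (-1.91 to -0.10, adjusted p = 0.107), and neither passed. The 5C value passed in 7 of 16 alternative settings (the 2-fold limit aside), with adjusted p from 0.0146 to 0.221, and without 5C replicate 2 it was -1.92 (adjusted p = 0.0146). For 3C it passed in 2 of 16, one of them without 5C replicate 1 (-1.003, adjusted p = 0.0497). The summed macrophage markers were also lower with both cocktails, at 3051 to 4644 CPM beside 13396 and 14364 in DMSO, and their part in the level of Osm was not tested. In FPKM the ratio of Lif to Osm was 2.82 and 2.56 in DMSO, 7.47 and 5.65 in 3C, and 10.4 and 5.96 in 5C. In counts the same ratio was 2.90 and 3.69, 11.7 and 11.5, and 19.4 and 8.71, so its size depended on the table, while both DMSO libraries were the lowest in each.

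Il6 and Il11 were near the limit of detection. Il6 (chr5:30218112-30224979, plus strand), which encodes interleukin-6 itself, had 26 and 14 counts in DMSO, 8 and 23 in 3C, and 22 and 49 in 5C, so that 1 library of 3C lay under the floor of 12 counts. The groups overlapped in all 3 comparisons. The log2 fold change was 0.80 with 5C (95% interval -1.13 to 2.72, adjusted p = 0.552) and -0.41 with 3C (-2.37 to 1.55, adjusted p = 0.798), intervals that leave more than 2-fold in either direction possible. Il11 (chr7:4775372-4785858, minus strand), known as a fibrosis-associated cytokine, had 28 and 38 counts in DMSO, 30 and 46 in 3C, and 34 and 80 in 5C. Its log2 fold change was 0.75 with 5C (-0.60 to 2.10, adjusted p = 0.408) and 0.15 with 3C (-1.21 to 1.504, adjusted p = 0.899). Between the cocktails the values were 1.21 for Il6 (adjusted p = 0.463) and 0.60 for Il11 (adjusted p = 0.621), and changes of either cytokine were not detectable at this depth.

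The 4 receptor chains moved in different directions. Il6ra (chr3:89771366-89820719, minus strand) encodes the chain that binds IL-6. It was measured at 61.6 and 52.4 CPM in DMSO, 36.9 and 37.8 in 3C, and 33.8 and 37.9 in 5C. Both cocktails lay below DMSO and overlapped each other. The gene fell by 0.65 ± 0.10 on the log2 scale with 5C (adjusted p = 0.00138) and by 0.64 ± 0.10 with 3C (adjusted p = 0.00174), or 1.57-fold and 1.56-fold. The difference between the cocktails was -0.01, with a 95% interval of -0.24 to 0.23. Both falls passed in all 16 alternatives. Hepatocytes and macrophages both express this receptor. The summed hepatocyte markers were higher with both cocktails and the summed macrophage markers lower, and their part in the level of Il6ra was not tested.

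Lifr (chr15:7120095-7226970, plus strand) encodes the receptor chain for LIF, which also serves oncostatin M in some species and cells. It stood at 61.1 and 51.4 CPM in DMSO, 43.9 and 46.5 in 3C, and 34.2 and 39.0 in 5C. The libraries of the 3 groups did not overlap, with 3C between DMSO and 5C. The log2 fold change was -0.60 ± 0.11 with 5C (adjusted p = 0.00279), which passed in all 16 alternatives. With 3C it was -0.35 ± 0.11 (adjusted p = 0.0441), which was lost in 7 of 16, among them without DMSO replicate 1 (-0.23, adjusted p = 0.221), without 3C replicate 1 (-0.30, adjusted p = 0.229) and without 3C replicate 2 (-0.39, adjusted p = 0.120). The difference between 5C and 3C, -0.25 with a 95% interval of -0.50 to -0.01, did not pass (adjusted p = 0.184).

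Osmr, on the same chromosome as Lifr (chr15:6843053-6904450, minus strand), encodes the chain that with gp130 forms the oncostatin M receptor. It was 91.2 and 86.0 CPM in DMSO, 82.1 and 88.8 in 3C, and 128 and 142 in 5C. Both 5C libraries exceeded the other 4, and DMSO and 3C overlapped. Osmr rose by 0.63 ± 0.08 on the log2 scale with 5C against DMSO (1.54-fold, adjusted p = 0.000404) and by 0.71 ± 0.08 against 3C (1.63-fold, adjusted p = 0.000985). For 3C against DMSO the value was -0.08, with a 95% interval of -0.27 to 0.10 (adjusted p = 0.538). These calls were unchanged in all 16 alternatives.

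Il6st (chr13:112600604-112646620, plus strand), the gene of gp130, rose with 5C. It was 499 and 451 CPM in DMSO, 547 and 533 in 3C, and 573 and 662 in 5C, so the groups were ordered without overlap. The log2 fold change was 0.40 ± 0.09 for 5C against DMSO (1.32-fold, adjusted p = 0.00953). It was 0.15 for 3C against DMSO (95% interval -0.05 to 0.36, adjusted p = 0.277) and 0.24 for 5C against 3C (0.04 to 0.45, adjusted p = 0.123). Without 5C replicate 2 the first value was 0.27 (adjusted p = 0.0653), and without 5C replicate 1 the last was 0.35 (adjusted p = 0.04998) and passed.

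Ratios between the chains were taken within each library of mixed cells, so the chains of a ratio may come from different cells. In FPKM, the ratio of Osmr to Lifr was 2.29 and 2.38 in DMSO, 2.85 and 2.73 in 3C, and 5.42 and 5.56 in 5C. The ratio of Il6ra to Il6st was 0.193 and 0.190 in DMSO, 0.102 and 0.113 in 3C, and 0.0970 and 0.0897 in 5C. Osmr stood at 1.518 and 1.598 times Il6ra in DMSO, 2.35 and 2.34 times in 3C, and 3.71 and 3.83 times in 5C. In each of these ratios the 3 groups did not overlap, and no test was run on them. In unscaled counts, Osmr to Lifr was 1.49 and 1.67 in DMSO, 1.87 and 1.91 in 3C, and 3.74 and 3.64 in 5C.

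**Figure D4:**
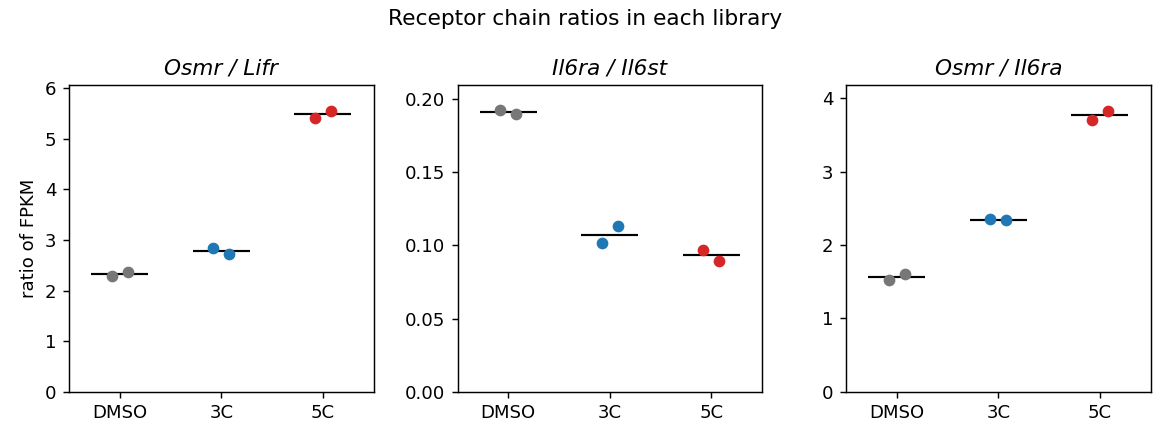
Ratio of FPKM between receptor chains in each library, with a point per library, a bar at the group mean and axes starting at 0. Osmr to Lifr is 5.42 or more in both 5C libraries and at most 2.85 elsewhere, and Il6ra to Il6st is 0.190 or more in both DMSO libraries and at most 0.113 with the cocktails.

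Stat3 and Socs3 were both highest with 5C. Stat3 (chr11:100775924-100830450, minus strand), the transcription factor that gp130 activates, was 216 and 206 CPM in DMSO, 239 and 223 in 3C, and 312 and 301 in 5C. Both 5C libraries were above all others. The log2 fold change was 0.56 ± 0.07 for 5C against DMSO (1.47-fold, adjusted p = 0.00028) and 0.46 ± 0.07 for 5C against 3C (1.37-fold, adjusted p = 0.00308). Without 3C replicate 2 the second value was 0.41 (adjusted p = 0.0548). For 3C against DMSO it was 0.10 (95% interval -0.05 to 0.25, adjusted p = 0.353), and in FPKM the sign turned (-0.054 on the log2(FPKM + 1) scale).

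Socs3 (chr11:117856905-117860898, minus strand) encodes the inhibitor that binds gp130 and JAK kinases and ends the signal, and its transcript is a usual readout of STAT3 activity. It was 51.2 and 59.7 CPM in DMSO, 44.4 and 46.9 in 3C, and 78.2 and 71.5 in 5C. The groups did not overlap, with 3C lowest and 5C highest. Socs3 was higher by 0.76 ± 0.10 on the log2 scale with 5C than with 3C (1.70-fold, adjusted p = 0.00148), which passed in all 16 alternatives. Against DMSO the log2 fold change was 0.45 ± 0.10 with 5C (1.37-fold, adjusted p = 0.00679), and 0.40 without 5C replicate 1 (adjusted p = 0.0532). With 3C it was -0.31 ± 0.10 (adjusted p = 0.0424), a call lost in 10 of 16 alternatives, including each that left out a library other than DMSO replicate 1, with values of -0.18 (without DMSO replicate 2, adjusted p = 0.221) to -0.36 (without 3C replicate 2, adjusted p = 0.117) among those. Exons of antisense RNAs cover 11.8% of the Socs3 exons, 11.1% of those of Lifr and 5.17% of those of Il6ra, and exons of opposite-strand genes cover 6.89% of those of Stat3. Strand use in the counting was not stated, so their reads cannot be told apart.

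Markers of several other cell types were higher with 5C as well. Mesothelial markers summed to 2060 and 2109 CPM in 5C beside 913 to 1311 in the other libraries, and stellate and fibroblast markers to 11556 and 12573 CPM beside 7076 to 9073. Of the 6 mesothelial markers, 4 were higher with 5C than with 3C, as were 5 of the 11 fibroblast markers, of which 2 were lower. Of 7 endothelial markers tested, Kdr and Cdh5 were higher with 5C than with 3C and none was lower. Kdr stood at 9.09 and 10.8 CPM in 3C and 19.8 and 21.7 in 5C, and Cdh5 at 6.45 and 14.9 CPM in 3C and 43.3 and 72.2 in 5C. Against 3C, 11 of 14 macrophage markers and 3 of 6 cholangiocyte markers were lower with 5C, and none of either list was higher. The shares of all tested genes in this comparison were 7.33% higher and 5.33% lower with 5C. The part of any of these cell types in the levels of Osmr, Stat3 and Socs3 was not tested.

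The window of 250 bases before the transcription start was searched for the STAT motif TTCNNNGAA, which reads the same on both strands, and for the cyclic AMP response element TGACGTCA, in the RefSeq promoters of 9 of the 10 genes. Socs3 alone among them held the STAT motif, at bases 154 to 146 before the RefSeq start. The stretch shown (chr11:117860328-117860356, minus strand, GRCm39) overlaps an annotated GENCODE exon of Socs3. Of all 32851 RefSeq promoters 7.02% held the STAT motif, as did 8.13% of 27025 genes. The cyclic AMP element in this exact form was in none of the 9 and in 1.55% of all promoters. Shorter forms and forms with a changed base were not searched. The STAT motif was also in 6 of the 18 acute phase genes with a promoter in the table (33.3%). It was in 1 of 12 other STAT3 target genes and in 1 of 3 other receptors of the family. None of the 4 other ligands, 6 kinases and transducers or 7 negative regulators held it. The cyclic AMP element was in 2 of the 6 kinases and transducers and in no gene of the other lists named here. A match of letters is a description and not a site of binding. The stretches with the motif are shown for Socs3 and 5 of the acute phase genes, which STAT3 can drive, on the strand of the gene with the motif in capitals.
Socs3: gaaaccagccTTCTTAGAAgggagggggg
Fga: aggcccccatTTCCTGGAAtgtagattcc
Fgb: gactcaatgaTTCGAGGAAccccctgtgt
Apcs: atcttcTTCTAGGAAagcacagggt
Itih4: aaacctgcatTTCCGAGAActtgcaccag
Steap4: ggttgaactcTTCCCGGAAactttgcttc
These stretches lie at chr3:82933216-82933244 for Fga, chr3:82957314-82957342 for Fgb, chr1:172722847-172722871 for Apcs, chr14:30608372-30608400 for Itih4 and chr5:8010346-8010374 for Steap4. Those of Itih4 and Steap4 overlap annotated GENCODE exons of their own genes. The genes shown did not move alike with 3C. Socs3 stood at -0.31 against DMSO on the log2 scale, a call lost in 10 of 16 alternatives. The 5 acute phase genes shown rose by 1.46 (Fgb) to 2.76 (Steap4).

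Of the other ligands of the family, 6 of 7 were tested. Ctf1, which encodes cardiotrophin-1, rose with both cocktails, from 3.87 and 3.02 CPM in DMSO to 8.12 and 7.86 in 3C and 9.50 and 7.35 in 5C (log2 fold change 1.18 with 3C, adjusted p = 0.00277, and 1.31 with 5C, adjusted p = 0.00133). Exons of Ctf2 on the other strand cover 26.3% of its exons. Clcf1, which encodes a ligand of the CNTF receptor, rose from 29.5 and 23.3 CPM in DMSO to 47.6 and 50.2 in 3C (0.86, adjusted p = 0.00666), with 37.9 and 26.4 in 5C. Ebi3, a subunit of IL-27 and IL-35, lies under the 5 CPM set for naming genes and is named after its values were seen: it fell from 4.30 and 3.76 CPM in DMSO to 0.854 and 0.664 in 5C (-2.39, adjusted p = 0.000465), with 3.26 and 2.23 in 3C. An antisense RNA covers 51.1% of its exons.

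Of the other receptors, 3 of 4 were tested and only Il11ra1, the chain that binds IL-11, passed. It stood at 39.0 and 41.6 CPM in DMSO, 43.2 and 42.8 in 3C, and 61.6 and 61.8 in 5C. Like Osmr, it had both 5C libraries above the other 4, with a log2 fold change of 0.63 ± 0.08 against DMSO (adjusted p = 0.000317) and 0.57 ± 0.08 against 3C (adjusted p = 0.00232). Its copy Il11ra3 shares 20.7% of its 50-base words, so its counts are uncertain.

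Among 7 kinases and transducers, Tyk2 alone passed, in all 3 comparisons. Tyk2, a JAK kinase of gp130 and interferon receptors, was 55.8 and 55.6 CPM in DMSO, 47.8 and 45.9 in 3C, and 32.8 and 31.3 in 5C. It fell by 0.78 ± 0.08 on the log2 scale with 5C (adjusted p = 7.87e-05) and by 0.28 ± 0.08 with 3C (adjusted p = 0.0259), and 5C was below 3C by -0.50 ± 0.08 (adjusted p = 0.00376). Jak1, the main kinase of gp130, stood at 225 to 266 CPM and Jak2 at 66.7 to 76.1 CPM over all libraries, and neither passed.

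Among 9 negative regulators and sheddases, 1 rose and 4 fell with each cocktail. Over all genes tested, 15.6% rose and 13.1% fell with 5C, and 12.7% rose and 11.8% fell with 3C. Cish, a SOCS family inhibitor induced mainly through STAT5, rose from 4.05 and 3.82 CPM in DMSO to 8.94 and 9.70 in 3C and 14.0 and 13.3 in 5C, and all 3 comparisons passed (1.21 with 3C, adjusted p = 0.000412, 1.81 with 5C, adjusted p = 3.01e-05, and 0.60 between them, adjusted p = 0.0291). Antisense RNAs cover 26.3% of its exons. The phosphatase gene Ptpn1 fell by 0.57 with each cocktail (adjusted p = 0.000472 with 5C and 0.000578 with 3C). Pias1 fell too, by 0.45 with 5C (adjusted p = 0.00982) and 0.38 with 3C (adjusted p = 0.0265). The proteases ADAM10 and ADAM17 cut IL-6 receptor from the cell surface. Adam10 fell by 0.40 with 5C (adjusted p = 0.00169) and 0.33 with 3C (adjusted p = 0.00572), and Adam17 by 0.21 (adjusted p = 0.0492) and 0.38 (adjusted p = 0.00360). Socs1, at 2.12 CPM or less, and Socs2, at 24.4 to 32.3 CPM, did not pass.

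A list of 15 genes that STAT3 is known to drive in many cell types showed no common direction. With 5C against DMSO 5 rose and 5 fell (median log2 fold change 0.01), with 3C 3 rose and 6 fell (-0.02), and between the cocktails 6 were higher and 6 lower with 5C (0.00). Over all genes tested, 15.6% rose and 13.1% fell with 5C, and 12.7% rose and 11.8% fell with 3C. Between the cocktails, 7.33% of all genes were higher and 5.33% lower with 5C. Some of the 15 were low with 3C. Pim1, a survival kinase, was 74.7 and 73.7 CPM in DMSO, 53.6 and 55.6 in 3C, and 82.9 and 80.2 in 5C, and was higher with 5C than with 3C by 0.63 (adjusted p = 0.000678). Fos stood at 34.6 and 34.4, 25.6 and 29.0, and 41.6 and 45.1 CPM in the same order of groups (0.72 between the cocktails, adjusted p = 0.00237). Timp1, an inhibitor of matrix proteases, was 54.6 and 66.02 CPM in DMSO, 26.5 and 27.1 in 3C, and 59.5 and 60.4 in 5C (1.21, adjusted p = 0.000273). Like Socs3, these 3 genes had their lowest values in 3C.

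Others were lowest with 5C. Myc was 141 and 152 CPM in DMSO, 122 and 118 in 3C, and 83.8 and 75.4 in 5C (-0.86 against DMSO, adjusted p = 3.87e-05). Ccnd1, the gene of cyclin D1, was 211 and 276 CPM in DMSO, 283 and 278 in 3C, and 152 and 126 in 5C (-0.79 against DMSO, adjusted p = 0.00374, and -0.96 against 3C, adjusted p = 0.00411), and exons of LTO1 on the other strand cover 48.4% of its exons. Mcl1 fell by 0.54 with 5C (adjusted p = 0.000227). In the counts, Junb rose with both cocktails, by 0.61 with 5C (adjusted p = 0.000816) and 0.60 with 3C (adjusted p = 0.00103). Its FPKM did not show this. It was 0 in DMSO replicate 1, both 3C libraries and 5C replicate 2, beside 78.4 in DMSO replicate 2 and 124 in 5C replicate 1. Bcl3 rose by 0.51 with 3C (adjusted p = 0.00180), and Il4ra fell by 0.58 with 3C (adjusted p = 0.000241).

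Most of the acute phase list rose. Of 23 genes, 22 rose and 1 fell with 5C (median log2 fold change 3.37), 18 rose and 1 fell with 3C (1.96), and 17 were higher and none lower with 5C than with 3C (1.13). Over all genes tested, 15.6% rose and 13.1% fell with 5C, and 12.7% rose and 11.8% fell with 3C. Between the cocktails, 7.33% of all genes were higher and 5.33% lower with 5C. The listed gene that fell with both cocktails was Saa3 (-0.99 with 5C and -1.13 with 3C), which macrophages and other cells outside the hepatocyte lineage also express. Orm1 rose from 3.05 and 2.11 CPM in DMSO and 5.57 and 7.92 in 3C to 134 and 120 in 5C (4.29 against 3C, adjusted p = 0.000135, with 14.9% of its 50-base words shared, mostly with Orm2), and Hp, the gene of haptoglobin, from 243 and 214 CPM in DMSO to 2138 and 2172 in 3C and 2862 and 2825 in 5C. Hamp, which encodes the iron hormone hepcidin, stood at 0.581 and 0.167 CPM in DMSO, 4.83 and 5.35 in 3C, and 27.4 and 21.6 in 5C. Itih3 rose by 2.73 and Fgl1 by 3.30 with 5C against 3C (adjusted p = 0.00941 and 0.000152). Most of these genes are hepatocyte products, and the summed hepatocyte markers also rose with both cocktails against DMSO. Of the 11 hepatocyte markers, 2 were higher and 2 lower with 5C than with 3C (median log2 fold change 0.33). Their sums overlapped, but most of each sum was Alb. Both 5C libraries lay above both 3C libraries for Apoa1, Ttr, Asgr1, Ass1, Cps1 and Pck1. They lay below for Hnf4a, Tat and Arg1, and Alb and Serpina1a overlapped. The part of the hepatocyte share in the rises of the acute phase genes was not tested. With 3C, 18 of the 23 acute phase genes rose while Il6ra, Lifr and Socs3 were lower than in DMSO. The fall of Lifr with 3C was lost in 7 of 16 alternatives and that of Socs3 in 10 of 16. A link between these changes was not tested.

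**Figure D5:**
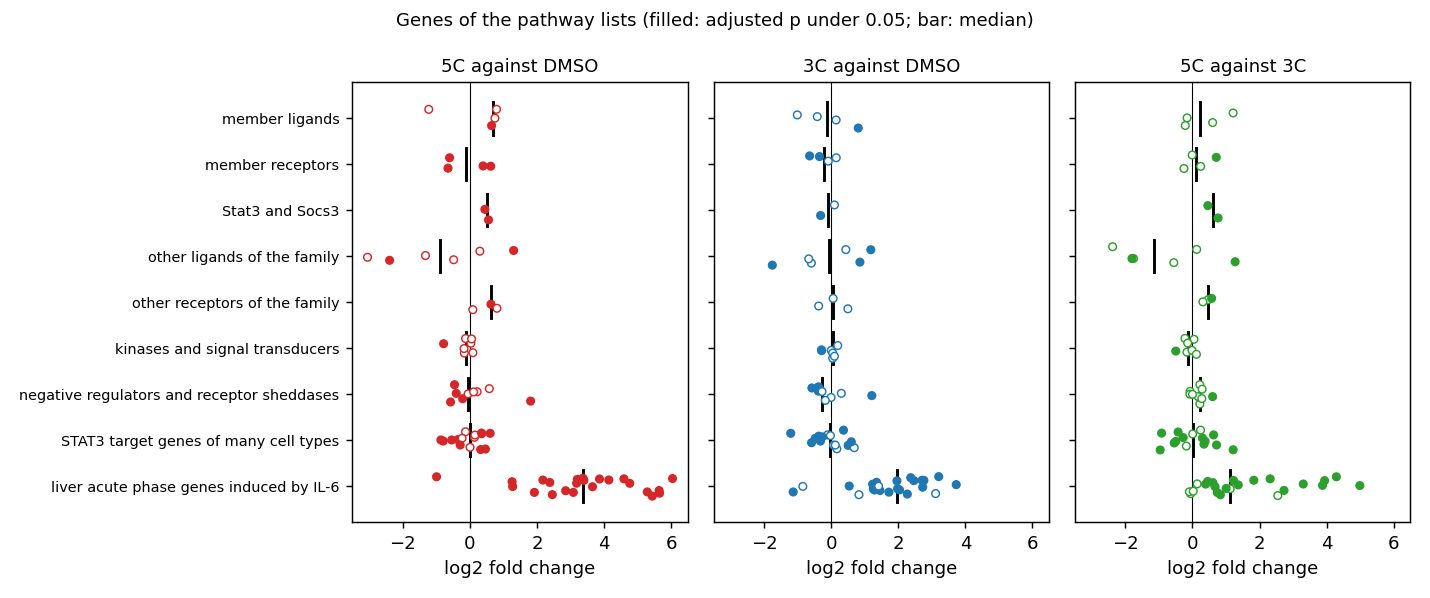
Log2 fold change of each tested gene by list (rows) in the 3 comparisons (panels). Each point is a gene, filled where the adjusted p was under 0.05, and the black bar is the list's median. The acute phase list lies to the right, with medians of 3.37, 1.96 and 1.13, while the other STAT3 target genes spread to both sides of medians of 0.01, -0.02 and 0.00.

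Likeness of pattern was taken as Pearson's r of log2 CPM over the 6 libraries among 10246 genes of at least 10 CPM. It is a description, since the 6 libraries fall into 3 groups of 2 and many genes share such a pattern. The genes most like Osmr were Mpp6 (r = 0.996), Tmtc2 and Nr4a1 (both 0.994), those most like Stat3 were Sbsn (0.998), Fscn1 and Piezo2 (both 0.996), and those most like Socs3 were Rhoj, Fkbp2 (both 0.990) and Pycrl (0.988). For Il6ra they were Arfgef2 (0.998), Btaf1 and Snx11 (both 0.996), for Lifr Vwa5a (0.998), Arhgap39 and Agps (both 0.993), for Il6st Acadsb (0.992), Prelp and Luzp1 (both 0.991), and for Lif F11r (0.999), Nt5dc2 (0.998) and Hint2 (0.991). The lower cytokines reached 0.992 (Osm with Abhd17b, followed by Tbc1d23 and Tgfbr1), 0.983 (Il11 with Ugt1a6b, followed by Tmem70 and Papss2) and 0.973 (Il6 with Golga1, followed by Mat2b and Eif4a2).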

How the data were processed

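Bulk RNA-seq was read from 2 deposited tables. The authors mapped paired reads to GRCm39 and deposited counts per gene (whole numbers, not normalized; featureCounts, Subread and DESeq2 are named in the submitters' processing notes) and FPKM, scaled by the authors for length and library total. Strand use and the versions of the counting tools are not given in the sources used here. Low counts were in excess at 4, 8 and 12 (4816, 2323 and 1335 entries), so a fragment may stand for several units. A fragment was taken as 4 units, and the floor as 3 fragments or 12 counts, which covers counting error only. The steps were tested on simulated data.

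Groups came from the labels. All 6 libraries were fitted with edgeR 4.0.16 (R 4.3.3; quasi-likelihood test, TMM, filterByExpr, robust), which left 3 residual degrees of freedom, with Benjamini-Hochberg adjustment over 19135 genes. A gene passed at an adjusted p under 0.05, and the biological coefficient of variation was 18.4%. Errors of log2 fold changes are SE. CPM are counts scaled to the library total. Positions and overlaps came from GENCODE on GRCm39, and promoters from RefSeq (starts of GRCm38.p6), located on GRCm39 by a single exact match. The members and lists were chosen with earlier results of these data known. All members were named. Of the other lists, at most 4 genes per list and comparison were named, those that passed with the largest change and at least 5 CPM, and for each member the 3 most like genes of at least 10 CPM. Some items that these rules select are not reported here. Alternatives were RLE and upper quartile normalization, no filter, DESeq2 1.42.0, a minimum of 10 counts per library, the 4 libraries compared, a replicate block, counts divided by 4, limma 3.58.1 on log2(FPKM + 1) and log2(FPKM + 0.1), a 2-fold limit, and leaving out each library. The replicate numbers did not pair the libraries: between groups, differences between replicates 1 and 2 correlated over genes at -0.03 to 0.02. Figures were drawn with matplotlib 3.10.9.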

Additional observations from a re-analysis of the deposited data

Results flagged for a closer look

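The cocktails' effects against DMSO differed, by the test of 5C against 3C, for 3 of the 10 genes. In that test 7.33% of all genes were higher and 5.33% lower with 5C. The difference in log2 fold change of these 3 members was 0.76 for Socs3, 0.71 for Osmr and 0.46 for Stat3. They were picked by that same test, so these values are no further support for it.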

How the results depend on the processing

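Of the members' log2 fold changes under the alternatives, 428 kept their direction and their side of the threshold, 25 lost and 10 gained the call, and 11 changed sign. With a 2-fold limit added, 0 of 10 members passed in each of the 3 comparisons. For 3C against DMSO the count of 4 became 2 with upper quartile normalization, 2 with the replicate block and 1 with limma on either FPKM scale, and ranged from 2 to 4 when 1 library was left out. The replicate block changed no other count beyond 1.5 times (8 for 5C against DMSO, 3 for 5C against 3C). Over all genes, 2423 passed in 5C against 3C, 1614 with limma on log2(FPKM + 0.1) and 1062 to 2812 when 1 library was left out, and 4689 passed in 3C against DMSO, 2944 to 4504 when 1 was left out. All sign changes were of values that had not passed. In FPKM, Stat3 in 3C against DMSO was -0.054 with a pseudocount of 1 and -0.055 with 0.1. Leaving out 1 library, with the lone replicate assumed to vary like the other groups, gave ranges with a change of sign of -0.012 to 1.25 for Il11 in 5C against DMSO, -1.33 to 0.14 for Il6 in 3C against DMSO, -0.17 to 0.42 for Il11 in 3C against DMSO, -0.92 to 0.25 for Osm in 5C against 3C, -0.17 to 1.09 for Il11 in 5C against 3C and -0.11 to 0.081 for Il6ra in 5C against 3C. The cause was not tested. Il6 had 8 to 49 counts and Il11 28 to 80 per library, and each group had 2 libraries.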
